A study of Saccharomyces cerevisiae with 25 samples.

Results

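The ATG genes of budding yeast are the genes named for their part in autophagy, and 28 of the 6650 named genes in the data matrix carry such a name, ATG followed by a number. They were taken by that name alone and not by any measured value. Their transcripts were measured with RNA sequencing in the haploid laboratory strain BY4741, which carries auxotrophic deletions and is labelled wild type. Cells grown overnight in high-phosphate medium were washed and moved to medium without phosphate. The no-phosphate course comprised 24 libraries from 15 to 360 min in steps of 15 min, set against 1 high-phosphate library at 0 min, and every library came from the same wild-type strain. Each time had 1 library, so 4 neighbouring times formed a window and stood in for replicates, the first from 15 to 60 min, the second from 75 to 120 min, the third from 135 to 180 min and the last from 315 to 360 min. The p-values therefore measure only the spread between neighbouring samples, which came from a serial course and may not be independent.

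Autophagy carries cytoplasm and organelles to the vacuole inside double-membraned vesicles and is used by yeast to recover nutrients when they run short. A kinase complex starts the process, vesicles carrying Atg9 supply membrane, lipid is made and moved at the growing sheet, and the ubiquitin-like proteins Atg8 and Atg12 are joined to their targets to expand and close it. Cargo receptors select particular loads, among them mitochondria and vacuolar enzymes, and vacuolar proteins break the delivered membrane and export what is recovered.

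Reference promoters of 4 members are shown because the results below turn on them. ATG8 had the highest change after 120 min among the members tested, and ATG27 had the lowest. ATG9 represents the membrane step, and ATG22 lay within its later range at 120 min, as several other members did. Each promoter runs 5′ to 3′ on the strand of its gene. It spans 250 bases before the start codon to 50 bases after its first base, from RefSeq's sequence of build R64. Capitals mark matches, on either strand, to AGGGG (the stress response element, also read by the repressor Rph1), GCCGCC (core of the site of the repressor Ume6), GATAAG (read by GATA factors) and TGACTC (core of the site of Gcn4). The positions are chrII:80682-80981, minus strand, for ATG8; chrIV:184675-184974, plus strand, for ATG9; chrIII:56478-56777, minus strand, for ATG22; and chrX:90048-90347, minus strand, for ATG27.
ATG8 promoter: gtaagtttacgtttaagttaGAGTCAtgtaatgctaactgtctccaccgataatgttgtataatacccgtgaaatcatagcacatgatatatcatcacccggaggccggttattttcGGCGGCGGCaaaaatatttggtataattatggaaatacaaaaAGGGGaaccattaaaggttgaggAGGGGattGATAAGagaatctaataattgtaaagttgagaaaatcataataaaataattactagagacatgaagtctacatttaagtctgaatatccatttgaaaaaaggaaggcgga
ATG9 promoter: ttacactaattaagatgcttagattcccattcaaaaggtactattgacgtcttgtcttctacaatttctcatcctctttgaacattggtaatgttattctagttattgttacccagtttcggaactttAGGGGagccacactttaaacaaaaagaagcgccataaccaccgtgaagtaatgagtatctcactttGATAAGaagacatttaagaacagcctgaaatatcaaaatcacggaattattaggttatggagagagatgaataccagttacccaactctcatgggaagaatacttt
ATG22 promoter: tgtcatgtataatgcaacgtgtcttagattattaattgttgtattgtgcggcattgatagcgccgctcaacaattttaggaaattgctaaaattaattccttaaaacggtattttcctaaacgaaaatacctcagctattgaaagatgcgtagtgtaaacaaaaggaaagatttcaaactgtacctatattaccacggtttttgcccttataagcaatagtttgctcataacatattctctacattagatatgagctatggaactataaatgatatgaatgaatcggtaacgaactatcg
ATG27 promoter: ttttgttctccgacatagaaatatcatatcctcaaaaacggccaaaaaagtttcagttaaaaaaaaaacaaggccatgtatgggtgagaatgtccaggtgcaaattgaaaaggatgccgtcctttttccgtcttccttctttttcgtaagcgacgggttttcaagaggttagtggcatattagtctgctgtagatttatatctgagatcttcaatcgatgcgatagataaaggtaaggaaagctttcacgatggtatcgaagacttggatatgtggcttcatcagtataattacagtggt

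In the ATG8 promoter AGGGG began 91 and 68 bases before the start codon, overlapping reverse-strand matches of GCCGCC began at 133 and 130, GATAAG at 60 and the reverse strand of TGACTC at 230, counted at the leftmost base. The ATG9 promoter held AGGGG at 122 and GATAAG at 56. The windows of ATG22 and ATG27 held no match to these letters or to CACGTG, the core read by Pho4, the activator of the phosphate regulon. All 28 members were matched to the annotation, and the motif counts below cover all of them. GATAAG was in 9 of the 28 promoters (32.1%), against 14.6% of all 6020 promoters of the same length. TGACTC was in 6 (21.4%), against 7.96% of all promoters. The windows include coding bases: the match of ATG10 began at coding base 45, and that of ATG13 began 5 bases before the start codon and ran into it. AGGGG was in 7 (25.0%, against 21.6%), GCCGCC in 2, ATG8 and ATG19 (7.14%, against 5.12%), and CACGTG in 1, ATG20 (3.57%, against 2.91%). These are matches of letters and not mapped sites, and a window without a match says only that the letters are not in it.

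Values are reads scaled to a sum of 1000000 per library (RPM) on the log2 scale, and a gene is given no value in a library where it fell below 10 reads. Depth, recovered from the steps between low values, lay between 209394 reads at 120 min and 1737019 reads at 75 min, with a median of 804867 and 1425608 in the high-phosphate library. The shallow 120 min library listed 3261 genes and only 10 of the 28 ATG genes, and its floor stood at 5.58 log2 RPM, so 9 of the 19 ATG genes tested below rest on 3 libraries in the 75 to 120 min window. At 10 reads, counting alone gives an SD of 0.456 log2 units. The median gene also moved: relative to high phosphate it lay 0.02 to 0.08 higher at 15 to 105 min and 0.26 to 0.44 higher from 120 min on. Counts are therefore also given relative to the median of the genes listed in every library, here called centred.

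The levels spanned the whole range from never listed to abundant. ATG22, ATG27, ATG26, ATG33, ATG19, ATG5, ATG11 and ATG13 were listed in all 25 libraries, and 21 of the 28 members were listed in high phosphate. ATG15, which encodes the lipase that breaks the delivered membrane, ATG16, the partner of the Atg12-Atg5 conjugate, and ATG29, of the kinase complex, were listed in none. A further 6 members were listed in 2 to 17 libraries, and 19 had the 3 values in every window that the test needed. Counts of changed genes therefore speak of these 19 and not of all members. Per kilobase, the highest levels at 315 to 360 min were 9.33 log2 RPM per kb for ATG33, 8.92 for ATG8 and 7.74 for ATG22, and the lowest among tested members was 4.18 for ATG2. In high phosphate ATG33 and ATG27 both stood at 7.15 log2 RPM per kb, ATG5 at 6.35 and ATG8 at 5.57. Division by gene length takes reads to be spread along the whole gene, which was not tested. The lengths were 594 bases for ATG33, 354 for ATG8 and 4779 for ATG2.

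**Figure D1:**
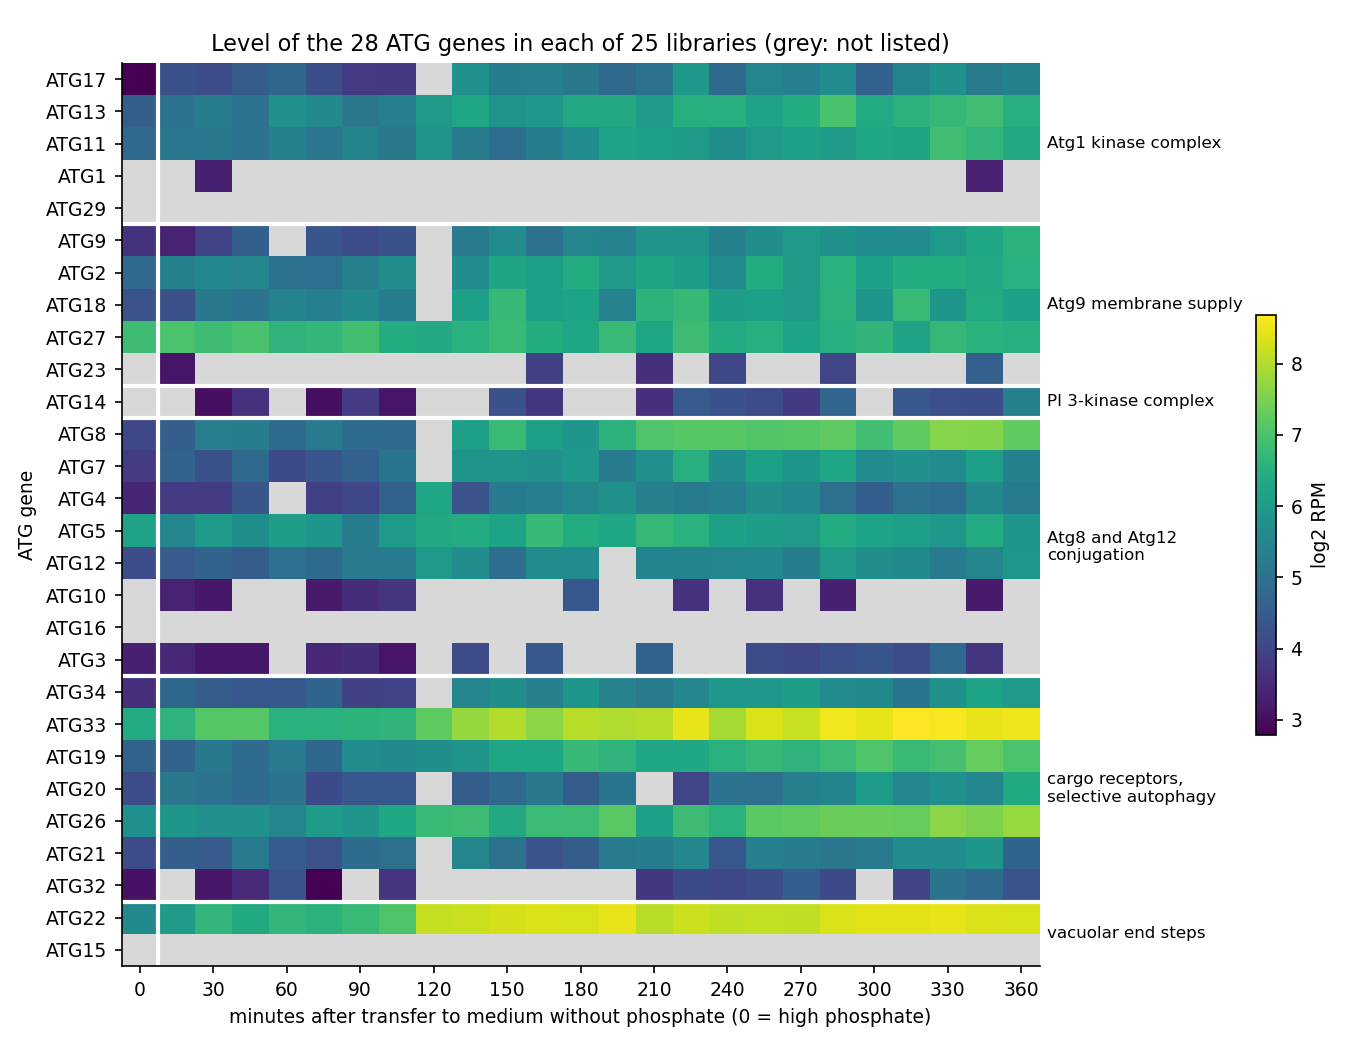
Level of the 28 ATG genes in each of the 25 libraries, with genes down the page grouped by role, time after transfer in minutes along the page, colour for log2 RPM and grey for not listed; 0 min is high phosphate. ATG33 and ATG22 reach the brightest colours after 120 min, ahead of ATG26 and ATG8, ATG27 keeps its colour, and ATG15, ATG16 and ATG29 stay grey.

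Most of the tested ATG genes were higher after 120 min than in the 75 to 120 min window. Of 19 tested, 15 rose and 0 fell (limma, Benjamini-Hochberg over the 4535 genes tested, threshold 0.05), where 33.3% of all tested genes rose and 9.37% fell. The median change was 0.87 log2 units over the ATG genes and 0.22 over all tested genes, and 18 of the 19 changes were above 0. Centred on the median gene, 11 rose and 0 fell, where 16.8% of all tested genes rose and 19.6% fell. In 6 of the 19, ATG8, ATG33, ATG34, ATG9, ATG19 and ATG7, every listed value from 135 to 360 min lay above every listed value from 15 to 120 min. This held for 6.53% of all tested genes. Of the 6, ATG8, ATG34, ATG9 and ATG7 had no value at 120 min. Against all of 15 to 120 min in place of the second window, 18 of 19 rose, ATG12, ATG4 and ATG21 being the additions, where 46.0% of all tested genes rose. Without the 120 min library the lack of overlap held for 8, the others being ATG22 and ATG13, where 13.5% of all tested genes did so.

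As deposited, the rise within the first hour was smaller. In 15 to 60 min, 17 members had a value in all 4 libraries and in high phosphate, and for 13 of them all 4 lay above high phosphate (12 when centred), where 29.8% of the genes compared did so (26.8% when centred). Their median ratio was 0.56 log2 units, against 0.016 for all genes compared. Only ATG17 lay at least 2-fold above high phosphate with all 4 samples above, where 2.47% of genes compared did so, and 7 lay at least 1.5-fold above, where 8.66% of genes compared did so. With a single high-phosphate library there is no test of these ratios. At 315 to 360 min, on the same baseline, 18 of 20 members compared were at least 2-fold above high phosphate, where 21.9% of genes were, and the median ratio was 1.87 against 0.37 for all genes compared.

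Set side by side, the change after 120 min was larger than the ratio of 15 to 60 min to high phosphate in 13 of the 19 tested genes (11 when centred). These quantities share no library. How many of all tested genes did so was not counted, so the count cannot be called particular to ATG genes. Over these 19 the median was 0.87 for the later change and 0.56 for the early ratio. In the 17 tested genes whose late level was at least 2-fold above high phosphate, the early ratio was a median of 33.1% of the late ratio on the log2 scale. The high-phosphate level enters both terms of that share. ATG17 and ATG20 had the largest shares, at 60.7% and 53.8%, ATG9 and ATG19 had 12.6% and 13.6%, and ATG26 was at -0.68%.

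**Figure D2:**
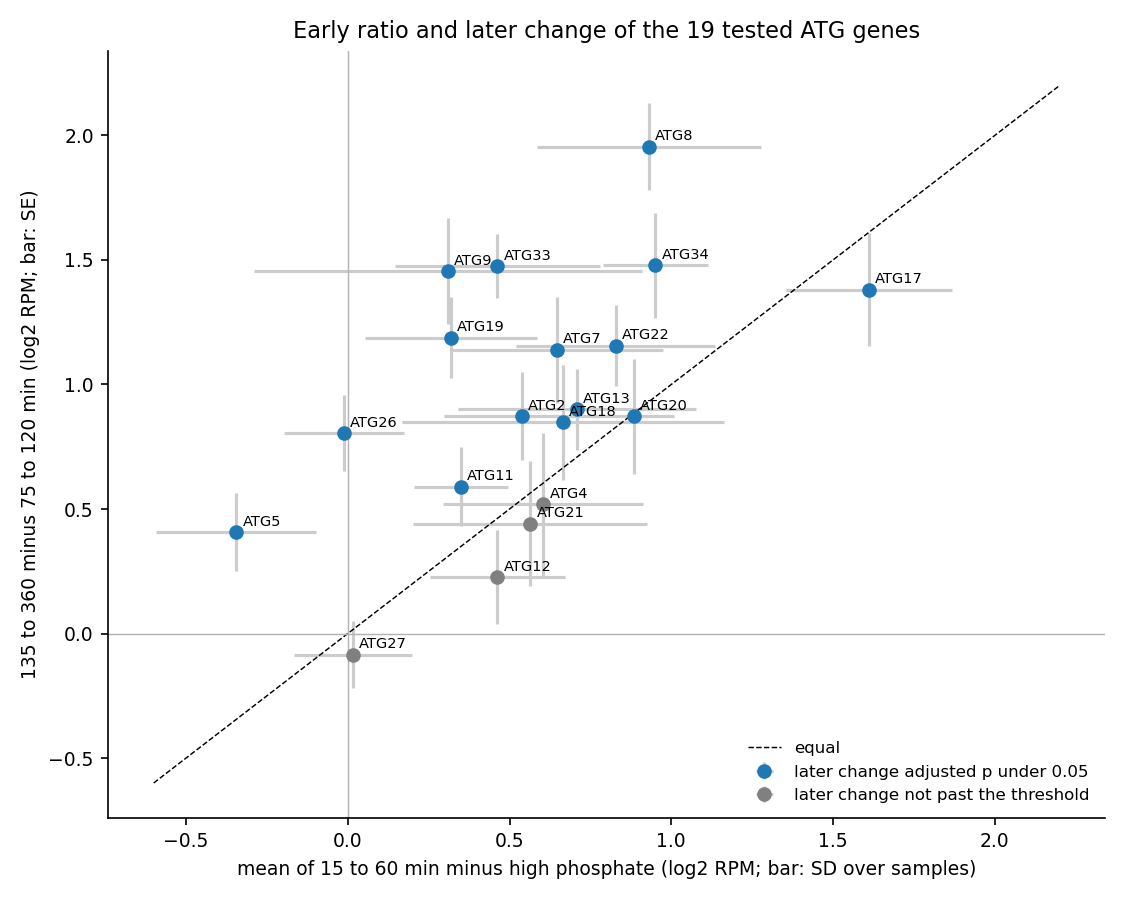
For each of the 19 tested ATG genes, the mean of 15 to 60 min minus high phosphate (x axis, log2 units, bar: SD over the listed samples) and the mean of 135 to 360 min minus that of 75 to 120 min (y axis, log2 units, bar: SE); blue marks an adjusted p under 0.05 on the y axis and the dashed line marks equal values. Of the 19 points 13 lie above the line, ATG8 is highest at 1.95, and ATG27 lies nearest the origin.

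Between these stages no change of an ATG gene passed the test. In 75 to 120 minus 15 to 60 min, 0 of 19 rose and 0 fell in limma, where 0.397% of all tested genes rose and 0.309% fell. An unadjusted p under 0.05 was reached by 5 of the 19 and by 464 of all 4535 tested genes. The changes ran from -0.72 for ATG20 to 0.70 for ATG4, with a median of 0.21, and that of ATG4 was 0.18 without the 120 min library. Over the whole no-phosphate course, 315 to 360 minus 15 to 60 min, 17 of 19 rose and 0 fell, where 37.8% of all tested genes rose and 10.0% fell, and the median change was 1.27 against 0.33. Centred, 13 rose and 1, ATG27, fell, where 19.3% of all tested genes rose and 21.5% fell. From 135 to 180 min to the last window 7 rose and 0 fell, where 10.8% of all tested genes rose and 7.78% fell. The rises that passed this test were those of ATG11, ATG26, ATG20, ATG19, ATG9, ATG33 and ATG8. In the 8 members listed in every library the median ratio to high phosphate was 1.04 at 120 min, against 0.45 at 105 min. A gene is among these 8 only if it reached the floor of 5.58 log2 RPM at 120 min, so this value cannot date their step. The median over all tested genes listed was 0.39 at 120 min, against 0.07 at 105 min, and the 120 min library lists only genes above its higher floor.

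**Figure D3:**
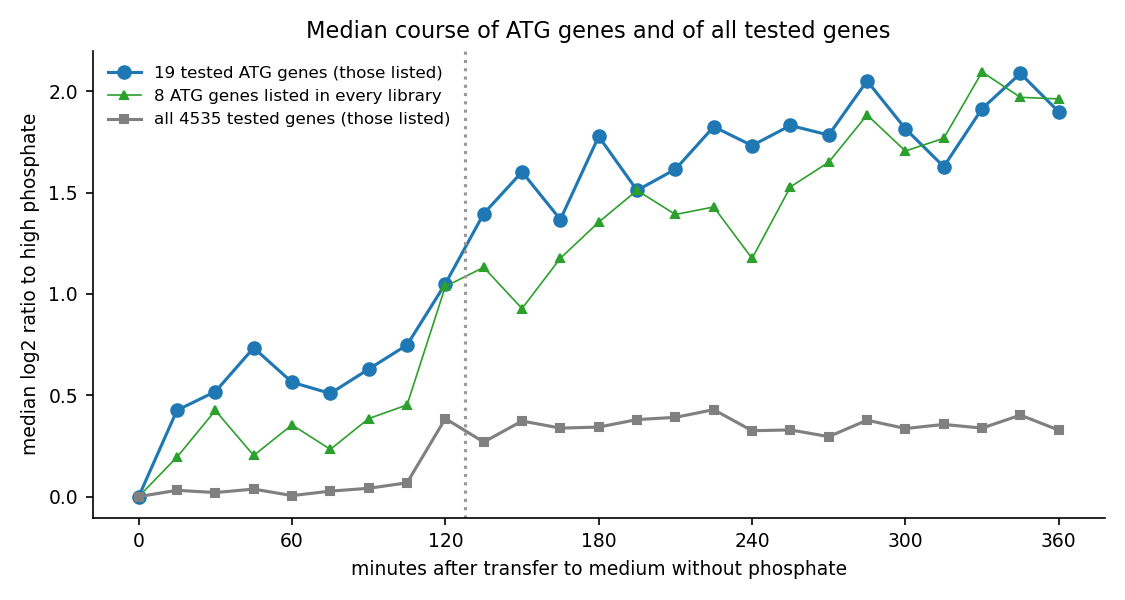
Median log2 ratio to high phosphate at each time after transfer (minutes), for the tested ATG genes listed in that library (blue), the 8 ATG genes listed in every library (green) and all tested genes listed in that library (grey); the dotted line lies between 120 and 135 min. The blue line lies between 0.43 and 0.75 from 15 to 105 min and between 1.37 and 2.09 from 135 to 360 min, while the grey line lies between 0.27 and 0.43 from 120 min on.

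Of the kinase complex that starts autophagy, all 3 tested members rose after 120 min (2 when centred). ATG1 (YGL180W, VII:160065-162758), the kinase itself, was listed in only 2 libraries, at 3.30 log2 RPM (12 reads) at 30 min and 3.33 (15 reads) at 345 min. It lay below 10 reads in the other 23 libraries, high phosphate included, so no course can be given. ATG17 (YLR423C, XII:971917-973170), the scaffold of the starvation complex, stood at 2.81 log2 RPM in high phosphate, which is exactly the 10 reads of the floor. Its values were 4.25, 4.18, 4.52 and 4.74 at 15, 30, 45 and 60 min and 4.20, 3.81 and 3.80 at 75, 90 and 105 min. Over 135 to 360 min the lowest of its 16 values was 4.65, the median 5.32 and the highest 5.93. All 4 early values lay well above the single high-phosphate value, the next 3 lay within or below the range of the early ones, and the later values overlapped the early ones only at their low end. The early ratio was 1.61 ± 0.26 (SD, n = 4), the highest of the members compared, and the change after 120 min was 1.38 ± 0.23 (SE, limma adjusted p = 7.08e-06, 120 min not listed). ATG13 (YPR185W), the regulatory subunit that answers to nutrient signalling, rose by 0.90 after 120 min, and ATG11 (YPR049C), the scaffold of selective autophagy, by 0.59. The mean of ATG11 was 5.39 log2 RPM at 75 to 120 min, 5.26 at 135 to 180 min and 6.00 at 195 to 240 min. Its rise thus lay after 180 min, and from 135 to 180 min to the last window it was 1.27. The change of ATG11 after 120 min did not pass the test when centred (0.35, adjusted p = 0.0681).

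Of the genes that supply membrane, 3 of 4 tested rose after 120 min (2 when centred). ATG9 (YDL149W, IV:184925-187918), the membrane protein of the vesicles that seed the growing sheet, stood at 3.66 log2 RPM in high phosphate. It had 3.37, 3.96 and 4.57 at 15, 30 and 45 min, was not listed at 60 min, and had 4.37, 4.14 and 4.26 at 75, 90 and 105 min. Its lowest value from 135 to 360 min was 4.99, the median 5.68 and the highest 6.57. The early samples lay on both sides of high phosphate, and every later value lay above every earlier one listed (120 min not listed). The early ratio was 0.31 ± 0.60 (SD, n = 3), within the spread, and the change after 120 min was 1.45 ± 0.21 (SE, adjusted p = 1.32e-06). ATG2, the lipid transfer protein that works with Atg9, rose by 0.87, and ATG18, its phosphoinositide-binding partner, by 0.85, which did not pass the test when centred (0.54, adjusted p = 0.0577).

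ATG27 (YJL178C, X:89282-90097), a membrane protein that helps Atg9 to its sites, was the exception. It stood at 6.85 in high phosphate, at 7.02, 6.85, 7.0 and 6.62 at 15 to 60 min, and at 6.70, 6.90, 6.43 and 6.34 at 75 to 120 min. Its lowest value after 120 min was 6.18, the median 6.50 and the highest 6.84, so the ranges overlapped throughout. The change after 120 min was -0.08 ± 0.14 (SE, adjusted p = 0.647), and the change from the first to the last window was -0.39 ± 0.17 (adjusted p = 0.0599), or -0.75 when centred (adjusted p = 8.57e-04). Its early ratio was 0.02 ± 0.18 (SD, n = 4). ATG23, which also serves Atg9 transport, was listed in 6 libraries only, between 3.13 and 4.59.

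In the conjugation step 3 of 5 tested genes rose after 120 min (2 when centred). ATG8 (YBL078C, II:80378-80731), the ubiquitin-like protein joined to membrane lipid and the common marker of autophagosomes, showed the largest change of the 19 tested members. It stood at 4.07 log2 RPM (24 reads) in high phosphate, at 4.58, 5.30, 5.27 and 4.87 at 15 to 60 min, and at 5.25, 4.87 and 4.80 at 75, 90 and 105 min. From 135 to 360 min its lowest value was 5.87, the median 7.10 and the highest 7.61. Every early value lay above high phosphate, the second window lay within the range of the first, and no later value overlapped an earlier one. The early ratio was 0.93 ± 0.35 (SD, n = 4), and the change after 120 min was 1.95 ± 0.18 (SE, adjusted p = 5.78e-11, 120 min not listed). ATG8 still rose from 135 to 180 min to the last window, by 1.19 ± 0.20 (adjusted p = 5.50e-05), and ended 3.35 ± 0.20 above high phosphate (SD, n = 4).

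ATG7, the activating enzyme shared by Atg8 and Atg12, rose by 1.14 after 120 min, with no overlap of later and earlier listed values (120 min not listed). ATG4, the protease that trims and recycles Atg8, had a change of 0.52 that did not pass the test (adjusted p = 0.149). Its window of 75 to 120 min held 3.90, 4.04, 4.61 and, in the shallow 120 min library, 6.26, and without that library the change was 1.04 (adjusted p = 4.66e-04). ATG3, the conjugating enzyme for Atg8, was listed in 17 libraries. It lay between 3.12 and 3.55 at 15 to 105 min where listed, and between 3.67 and 4.80 in the 10 later libraries that list it. The floor reached 4.82 log2 RPM in the later libraries (at 195 min), and low values there are not listed. The ranges of genes listed only in part, here and below, therefore give no course. ATG10, the conjugating enzyme for Atg12, was listed in 10 libraries, between 3.18 and 4.39.

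ATG12 and ATG5, the pair that the Atg12 system joins, had the lowest changes after 120 min but for ATG27. ATG12 (YBR217W, II:657832-658392), its ubiquitin-like protein, stood at 4.19 in high phosphate, at 4.48, 4.67, 4.52 and 4.94 at 15 to 60 min, and at 4.82, 5.23, 5.19 and 5.96 at 75 to 120 min. From 135 to 360 min its lowest value was 4.92, the median 5.53 and the highest 5.97 (n = 15). The levels were already higher in the second window than in the first apart from the 75 min value, and the later values overlapped that window. The change after 120 min was 0.23 ± 0.19 (SE, adjusted p = 0.345) and turned to -0.02 when centred. It was 0.45 without the 120 min library and 0.07 without the 75 min library, and against all of 15 to 120 min it was 0.55 (adjusted p = 0.001731). The change from the first to the last window was 0.90 ± 0.24 (adjusted p = 0.002), and the last window lay 1.36 ± 0.30 above high phosphate (SD, n = 4). ATG5 (YPL149W, XVI:271310-272194), the protein that Atg12 is joined to, stood at 6.17 in high phosphate, above its 5.53, 6.00, 5.73 and 6.06 at 15 to 60 min, and had 5.88, 5.27, 5.99 and 6.34 at 75 to 120 min. Its later values ran from 5.89 through a median of 6.23 to 6.73. It was the only tested member with all 4 early values below high phosphate (early ratio -0.34 ± 0.25, SD, n = 4). Its change after 120 min was 0.41 ± 0.16 (SE, adjusted p = 0.036), which did not pass when centred (0.17, adjusted p = 0.402) or without the 90 min library (0.21, adjusted p = 0.345), and its last window lay 0.09 ± 0.23 below high phosphate (SD, n = 4).

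**Figure D4:**
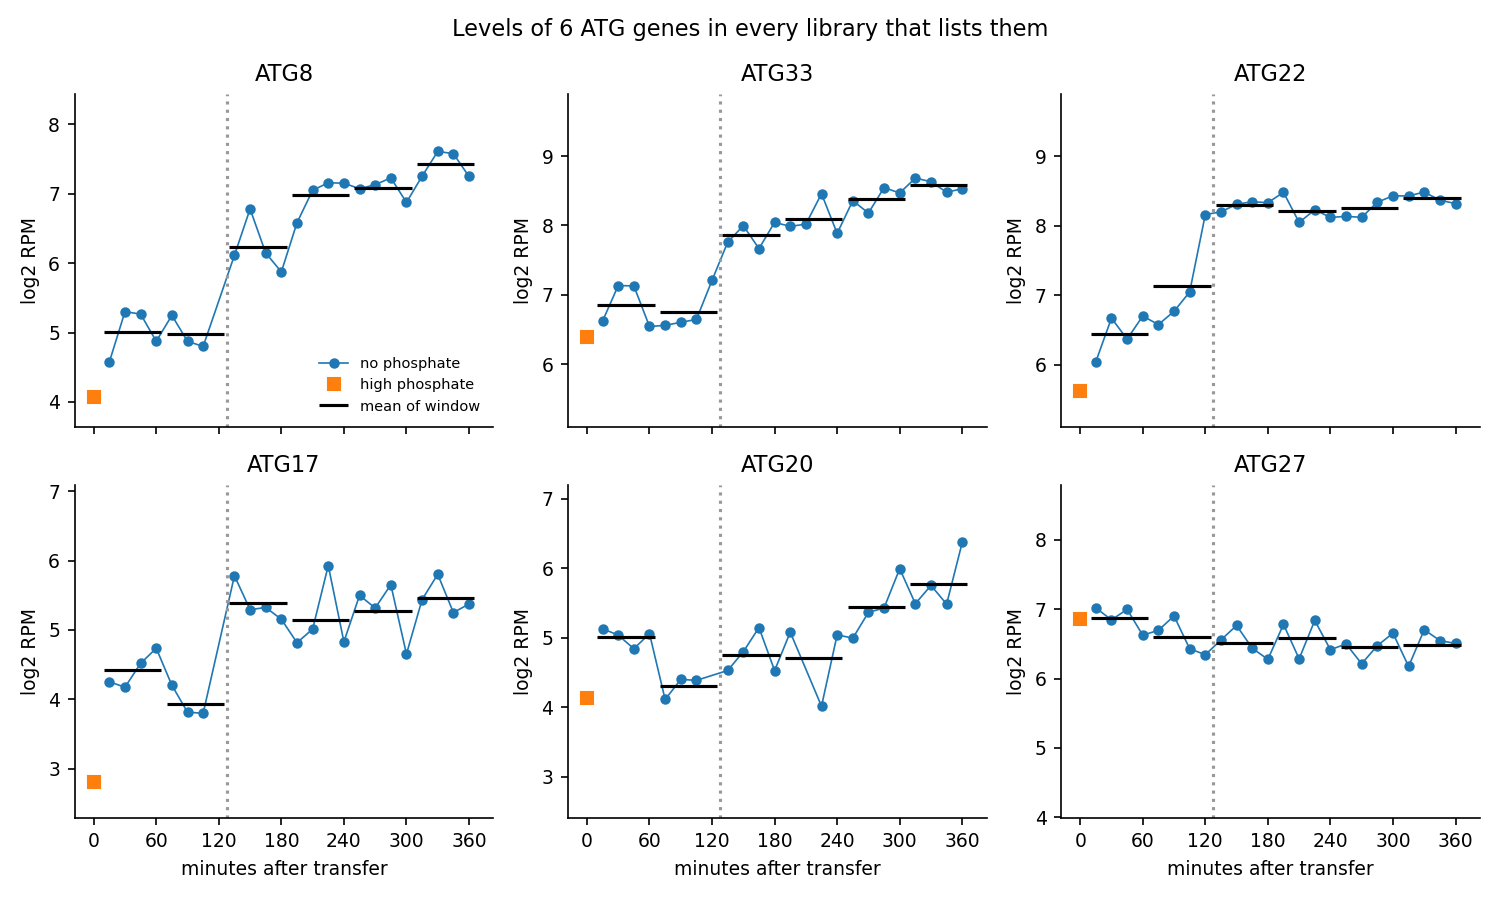
Level (log2 RPM) of ATG8, ATG33, ATG22, ATG17, ATG20 and ATG27 at each time after transfer (minutes); blue circles are no-phosphate libraries, the orange square is high phosphate, black bars are window means and the dotted line lies between 120 and 135 min. ATG8 and ATG33 step up after 120 min and go on rising to the last window, ATG22 is at 8.16 by 120 min, ATG20 is high, low and high again, and ATG27 stays between 6.18 and 7.02.

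Among cargo receptors and genes of selective autophagy 5 of 6 tested rose after 120 min (4 when centred). ATG33 (YLR356W, XII:840321-840914), a mitochondrial outer membrane protein used in mitophagy, stood at 6.40 log2 RPM in high phosphate, at 6.62, 7.13, 7.13 and 6.54 at 15 to 60 min, and at 6.56, 6.60, 6.65 and 7.21 at 75 to 120 min. From 135 to 360 min its lowest value was 7.67, the median 8.27 and the highest 8.68. The values at 30 and 45 min lay above those of 15 and 60 to 105 min, and no later value overlapped an earlier one. The change after 120 min was 1.48 ± 0.13 (SE, adjusted p = 1.94e-11), and the early ratio was 0.46 ± 0.32 (SD, n = 4). ATG32, the receptor for mitochondria, was listed in 16 libraries, between 2.79 and 4.32 at 0 to 105 min where listed, in none from 120 to 195 min, and between 3.74 and 5.07 in 10 libraries from 210 min on.

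ATG34 (YOL083W, XV:165714-166952), a receptor that brings alpha-mannosidase to the vacuole in starvation, stood at 3.58 in high phosphate, at 4.76, 4.52, 4.41 and 4.42 at 15 to 60 min, and at 4.70, 3.93 and 3.97 at 75, 90 and 105 min. After 120 min its lowest value was 5.08, the median 5.68 and the highest 6.21. The early values all lay above high phosphate, 90 and 105 min lay lower again, and no later value overlapped an earlier one. The early ratio was 0.95 ± 0.16 (SD, n = 4) and the change after 120 min was 1.48 ± 0.21 (SE, adjusted p = 7.17e-07, 120 min not listed). ATG19 (YOL082W), the receptor of the aminopeptidase pathway that also runs in growing cells, lies next to ATG34 on the same strand with 1774 bases between them. It is a related gene, and how reads that match both were counted is not given in the sources used here. ATG19 rose by 1.19 after 120 min and by a further 0.73 from 135 to 180 min to the last window, with an early ratio of 0.32 ± 0.27 (SD, n = 4).

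ATG20, a sorting nexin, followed another course. It stood at 4.13 in high phosphate, at 5.13, 5.04, 4.84 and 5.06 at 15 to 60 min, at 4.11, 4.40 and 4.39 at 75, 90 and 105 min, and at 5.49, 5.75, 5.48 and 6.37 at 315 to 360 min. The first window lay above both high phosphate and the second window without overlap, though the change between these windows did not pass the test (-0.72, adjusted p = 0.381). Its change after 120 min was 0.87 (adjusted p = 0.0027), and 0.57 when centred (adjusted p = 0.0537). ATG26, a sterol glucosyltransferase needed for peroxisome turnover in the yeast Pichia pastoris, rose by 0.81 after 120 min and had an early ratio of -0.01 ± 0.19 (SD, n = 4). ATG21, a phosphoinositide-binding protein, had a change of 0.44 after 120 min that did not pass the test (adjusted p = 0.163), though against all of 15 to 120 min it did (0.45, adjusted p = 0.036).

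ATG22 (YCL038C, III:54941-56527), which exports amino acids from the vacuole, was the one tested gene of the vacuolar end steps. It stood at 5.62 in high phosphate, at 6.04, 6.67, 6.37 and 6.70 at 15 to 60 min, and at 6.58, 6.77, 7.05 and 8.16 at 75 to 120 min, and the later values ran from 8.05 to 8.49. The 120 min value rests on 60 reads and lies within the later range, while 105 min lies below it. This was not particular to ATG22. In the same shallow library ATG26, ATG13, ATG12, ATG11, ATG5 and ATG27 also lay within their later ranges. ATG4 lay above its own, and ATG19 and ATG33 lay below theirs. The change after 120 min was 1.16 ± 0.16 (SE, adjusted p = 8.12e-07), or 1.497 without the 120 min library, and the level did not move beyond its spread from 135 to 180 min to the last window (0.10 ± 0.21, adjusted p = 0.764). ATG14, the subunit that directs the lipid kinase Vps34 to autophagy, was listed in 17 libraries, between 3.01 and 3.81 at 30 to 105 min where listed and between 3.61 and 5.37 in 12 later ones.

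Genes that work with the ATG genes moved to different degrees after 120 min. Of the ATG genes that the matrix names otherwise, 8 were found and 6 tested, and 4 rose and 0 fell, both as deposited and centred. The highest was ATG40 (YOR152C), a receptor for endoplasmic reticulum, at 6.74 ± 0.63 log2 RPM from 135 to 360 min (SD, n = 16) against 4.49 ± 0.17 at 75 to 120 min (SD, n = 3), a change of 2.25 ± 0.18 (SE, adjusted p = 5.16e-12), and the lowest was ATG36 (YJL185C), a receptor for peroxisomes, at 0.06. Of 7 tested cargo enzymes and vacuolar proteases 6 rose and 0 fell (5 and 0 when centred), from 1.85 for AMS1, the alpha-mannosidase, to 0.27 for CPS1, a carboxypeptidase whose change did not pass the test. Of 7 tested trafficking partners shared with other pathways 4 rose and 0 fell, and 0 rose when centred, from 0.68 for VPS15, the regulatory subunit of the Vps34 kinase, to 0.08 for YPT7, the vacuolar Rab protein. Of 7 tested transcriptional regulators of ATG genes 4 rose and 0 fell (3 and 0 when centred), from 1.53 for GAT1, a GATA activator, to 0.06 for UME6. Of 13 tested genes of nutrient kinases and their regulators 7 rose and 0 fell (4 and 1 when centred), from 1.17 for TPK2, a catalytic subunit of protein kinase A, to -0.08 for SNF1, the kinase of glucose limitation. These counts and those by role above stand beside all tested genes in the same comparison. As deposited 33.3% of all tested genes rose and 9.37% fell, and when centred 16.8% rose and 19.6% fell.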

How the data were processed

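RNA was extracted in a plate format from frozen cells and sequenced, per the labels' protocols. Reads were aligned with Bowtie to build R64, per the submitters' processing notes. The aligner's version, the counter, strand and the handling of reads with several matches are not stated in the labels. The deposited log2 values, made by the authors, sum to 1000000 in each column on the linear scale, so they are log2 RPM, although the design text speaks of normalization to the first time. A gene without a value is below a floor taken as 10 reads: 96.27% of values under 400 RPM were whole multiples, within 0.01, of the worth of 1 read, the column's minimum over 10. The recovered reads give depth, counting error and one set of weights, since the deposited unit is log2. Intervals of counting error cover counting only.

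All 6650 named genes were read, and 51 lines without a name were left out. limma 3.58.1 in R 4.3.3 (eBayes with trend and robust) fitted 6 window means to the 4535 genes with at least 3 values in each window, with no pseudocount. The high-phosphate library entered no test. Adjusted p-values are two-sided Benjamini-Hochberg values over these genes, with a threshold of 0.05. The script was tested on simulated data. A ratio to high phosphate counted when the mean lay at least 1 log2 unit above and all 4 samples lay above. Full values are given for ATG8, ATG1, ATG9, the 3 highest and 3 lowest changes after 120 min and the 3 highest early ratios. ATG22, ATG20 and ATG4 were described further after their values were seen. Members, lists, windows and tests were chosen with earlier results of these data known. Alternatives were centring, filters on listed values, values below the floor, a pseudocount of 10 RPM, counting weights, the variance model, 15 to 120 min as the earlier samples, and leaving out each library. Leaving the 120 min library out of the count without overlap, and centring the count with all 4 above, were chosen after seeing the data. Promoters of 300 bases were read from RefSeq's build R64.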

Additional observations from a re-analysis of the deposited data

Results flagged for a closer look

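In 6 of 101 groups of 4 libraries, 1 value of an ATG gene lay far from the other 3 for the range of the group, by Dixon's 95% limit, which chance alone passes in about 1 of 20 groups. At 150 min ATG12 was at 4.92 log2 RPM, against 5.65 to 5.69 in the other libraries of 135 to 180 min. In the same library ATG26 was at 6.34, against 6.80 to 6.83, and ATG18 at 6.75, against 6.11 to 6.20. ATG33 was at 7.21 at 120 min, against 6.56 to 6.65 at 75 to 105 min. ATG19 was at 4.76 at 75 min, against 5.61 to 5.72 in the other libraries of its window. ATG21 was at 5.24 at 45 min, against 4.47 to 4.58 in the other libraries of 15 to 60 min.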

How the results depend on the processing

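With 1 library per time, the recovered depth and the 10-read floor limit the low genes most. Under the alternatives other than leaving out a library, 61 counts stayed within 1.5 times the reported one or at the same 0, and 7 did not. Restricted to genes listed in all 24 no-phosphate libraries, 8 ATG genes could be tested, and 7 rose after 120 min, 6 from the first to the last window and 4 from 135 to 180 min to the last, against 15, 17 and 7 of 19. From the first to the last window 1, ATG27, fell when centred or with counting weights, against 0. At 15 to 60 min 7 lay above high phosphate at 1.5-fold (8.66% of all genes compared), 0 at 2-fold on the log2(RPM + 10) scale, and 1 as reported. Leaving out 1 library in turn gave 14 to 16 rises after 120 min, 0 to 1 rises from the first to the second window (1 without 75 min), 15 to 17 rises and 0 to 1 falls from the first to the last (1, ATG27, without 60, 120 or 330 min), 5 to 8 rises from the third to the last, and 1 to 2 genes at least 2-fold above high phosphate at 15 to 60 min (2 without 15 min). Against 15 to 120 min 18 rose, ATG12, ATG4 and ATG21 gaining the call. ATG4 also gained it with counting weights (0.65, adjusted p = 0.0459) and without 120 min. ATG20, ATG18, ATG5 and ATG11 lost the call after 120 min when centred, and ATG20 also with missing values set below the floor (0.66, adjusted p = 0.0646). ATG5 lost it too without the 75, 90, 105, 165, 285 or 345 min library (0.21 to 0.45, highest adjusted p = 0.345). From the first to the last window ATG12, ATG20, ATG4 and ATG21 lost the call when centred, ATG20 without 360 min, ATG4 without 15 or 30 min, and ATG21 without 15, 30, 60, 315, 330 or 345 min. From the third to the last window ATG20 lost it with missing values set below the floor, ATG9 without 135, 165, 345 or 360 min, and ATG19 without 135 or 345 min. When centred, ATG12 turned to -0.0176 after 120 min and ATG5 to -0.1053 from the first to the last window, where centring takes out the shift of the median gene. ATG27 after 120 min ran from -0.168 to 0.0183 when 1 library was left out, the highest without 90 min, and the cause was not tested. No paired analysis was possible because each time has 1 library and the labels give no replicate numbers.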
